A study of Mus musculus with 6 samples.

Results

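The SLC25 genes encode the mitochondrial carriers, a family of small membrane proteins, nearly all in the inner mitochondrial membrane, that exchange nucleotides, phosphate, organic acids, amino acids, cofactors and metal ions between the cytosol and the matrix. Members were taken as every gene whose symbol is Slc25a followed by a number, which gave 47 of the 56941 genes listed. Of these, 46 had at least 1 read, and 42 passed the filter on low counts and were tested. RNA came from primary endothelial cells, which were separated from mouse lung tissue on magnetic beads and kept in endothelial medium with serum. The 2 groups were cells with the genotype FUNDC1-FLOX (FL, 3 libraries), in which the Fundc1 gene carries loxP sites, and cells with the genotype FUNDC1-KO, titled as an endothelial knockout (EC-KO, 3 libraries). The labels used here do not name the Cre driver, the age of the mice, the antibody on the beads or whether replicates are separate animals, so p-values measure the spread between these libraries, which may be technical. Fundc1 encodes a mitophagy receptor of the outer mitochondrial membrane, and the series title links its loss to pulmonary hypertension.

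The carriers set which fuels and cofactors a mitochondrion can use. ADP/ATP carriers bring ADP in and ATP out, and the phosphate carrier supplies phosphate for ATP synthesis. The aspartate-glutamate and oxoglutarate carriers form the malate-aspartate shuttle, which moves reducing equivalents from the cytosol into the matrix. Others bring in NAD, folate, glutathione, iron or acylcarnitines, which the matrix needs and cannot make or must concentrate. Lung endothelial cells are known to rely strongly on glycolysis, with mitochondria serving biosynthesis and signalling as well as ATP supply.

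In these libraries 4 carriers were higher and 6 lower in EC-KO than in FL. Described below among the carriers that rose are Slc25a51 (NAD), Slc25a10 (dicarboxylates) and Slc25a36 (pyrimidine nucleotides). Those that fell were Slc25a45, Slc25a24 (ATP-Mg and phosphate), Slc25a40 (glutathione), Slc25a32 (folate and FAD), Slc25a11 (oxoglutarate) and Slc25a12 (aspartate and glutamate). The 10 called members were 23.8% of the 42 tested, against 27.1% of all 18562 genes tested. The share called higher was 9.52% against 13.5% of all genes, and the share called lower was 14.3% against 13.5%. Changes were modest in size: 1 called member changed at least 2-fold (2.38%), where 16.7% of all tested genes did, and the median absolute log2 fold change was 0.40 for the carriers and 0.50 for all genes. The median log2 fold change was -0.17 over the carriers and 0.034 over all genes, and 29 of the 42 lay below 0. At an unadjusted p under 0.05 there were 15 carriers (35.7%, against 40.6% of all genes). The groups did not overlap in 20 of 42 carriers (47.6%, against 45.4% of all genes), of which 14 were lower in EC-KO (33.3%, against 22.8%) and 6 higher (14.3%, against 22.6%).

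**Figure D1:**
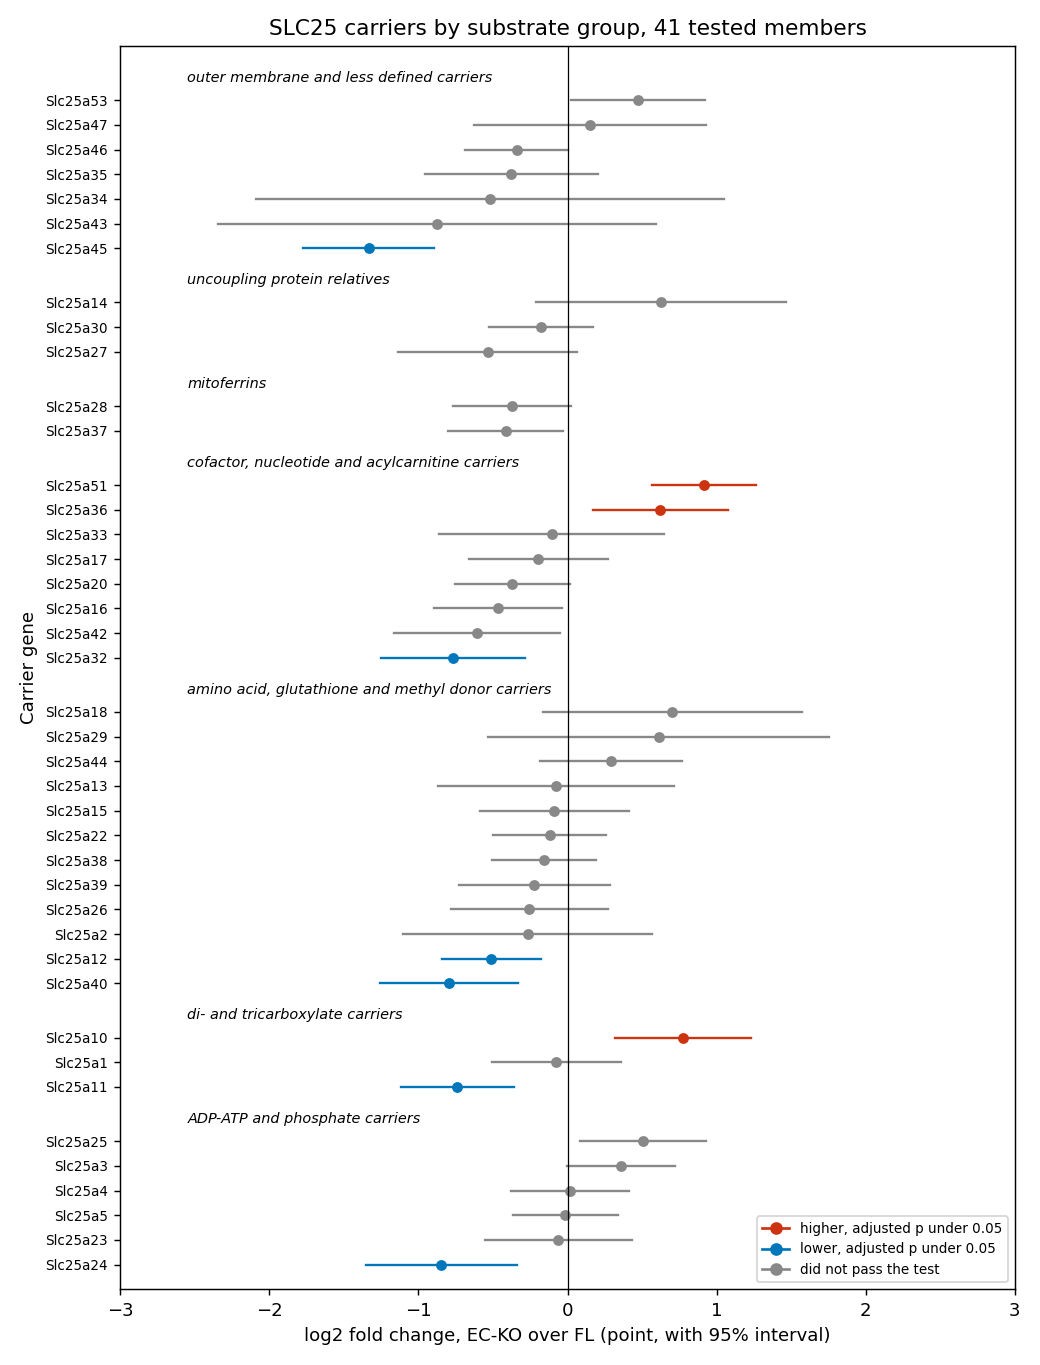
Log2 fold change of EC-KO over FL (x axis) for 41 of the 42 tested carriers (y axis), sorted within substrate groups, with the 95% interval of the fit. Slc25a51 has the highest value (0.92) and Slc25a45 the lowest (-1.33), and red, blue and grey mark the 3 higher, 6 lower and 32 other members shown.

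Depth was 26.7 to 34.3 M gene counts per library. Values per library are given in the order of replicates 1, 2 and 3, as CPM, the count scaled to the size of the library. Fundc1 itself was at 25.1, 32.0 and 30.7 CPM across FL and 14.1, 18.2 and 12.8 across EC-KO, a log2 fold change of -0.96 ± 0.19 (SE, n = 3 each), adjusted p = 0.00796 in edgeR's quasi-likelihood test, so reads remained in the knockout libraries. Scaled to the pan-endothelial markers, whose median log2 fold change was -1.08, Fundc1 was at 0.18 (adjusted p = 0.657), which turned its direction and ended the call. Which exons are deleted is not given in the labels, and a count over the whole gene also takes in exons that remain. The isolates also held RNA of other lung cells, and fewer cells of a type cannot be told apart from less RNA per cell. Of 20 pan-endothelial markers 12 fell, with a summed level of 11357 to 15825 CPM in FL and 4421 to 8906 CPM in EC-KO. Of 14 epithelial markers 13 rose (1825 to 4388 CPM in FL and 11399 to 16914 CPM in EC-KO), of 11 fibroblast markers 7 rose (392 to 505 CPM in FL and 760.2 to 1729 CPM in EC-KO), and of 14 macrophage markers 13 fell (5733 to 7478 CPM in FL and 2496 to 3329.7 CPM in EC-KO). Of 10 smooth muscle and pericyte markers 8 fell (622 to 872 CPM in FL and 296 to 437 CPM in EC-KO). No marker of these 5 lists was at 0 in all libraries. Beside the counts of markers here and below, 13.5% of all tested genes were called higher and 13.5% lower. EC-KO 2 stood apart from the other EC-KO libraries, with the highest sum among them for each of the 5 lists. Its sums were 8906 CPM for endothelial, 16914 CPM for epithelial, 1729 CPM for fibroblast, 3329.7 CPM for macrophage and 437 CPM for smooth muscle and pericyte markers. The part of these cell types in the carrier values below was not tested. Where the same counts were scaled to the pan-endothelial markers, the median of all genes moved from 0.034 to 1.21. The counts of carriers became 23 higher and 0 lower. These were 54.8% of the tested carriers, where 58.3% of all genes were called, 10605 higher and 216 lower. Each direction given here is thus relative to the whole RNA of the isolate.

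Promoter sequences are shown for 4 of the called carriers, because genes that moved the same way could share short motifs there. They are the 250 bases before the RefSeq start site, 5′ to 3′ on the gene's strand, in GRCm38.p6. Capitals mark the binding motifs searched, which were TGACGTCA (CRE, bound by CREB and ATF factors), CACGTG (E-box), TGANTCA (AP-1), TNGCGTG (XRE, bound by the aryl hydrocarbon receptor) and the NRF1 motif (GCGC and TGCGC with any base between them), each on both strands. Slc25a36 and Slc25a10 rose, and Slc25a11 and Slc25a40 fell.
Slc25a36 (chr9:97111042-97111291, minus strand): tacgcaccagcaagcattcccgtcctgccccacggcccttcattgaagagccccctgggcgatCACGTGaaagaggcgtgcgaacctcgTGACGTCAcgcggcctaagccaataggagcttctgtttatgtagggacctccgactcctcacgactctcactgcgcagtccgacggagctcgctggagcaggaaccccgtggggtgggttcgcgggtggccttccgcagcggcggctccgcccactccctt
Slc25a10 (chr11:120491587-120491836, plus strand): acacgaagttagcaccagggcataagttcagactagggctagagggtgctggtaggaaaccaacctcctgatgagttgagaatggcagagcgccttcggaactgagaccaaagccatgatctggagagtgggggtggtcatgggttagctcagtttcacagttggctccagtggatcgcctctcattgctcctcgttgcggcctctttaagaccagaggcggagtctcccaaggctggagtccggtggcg
Slc25a11 (chr11:70647040-70647289, minus strand): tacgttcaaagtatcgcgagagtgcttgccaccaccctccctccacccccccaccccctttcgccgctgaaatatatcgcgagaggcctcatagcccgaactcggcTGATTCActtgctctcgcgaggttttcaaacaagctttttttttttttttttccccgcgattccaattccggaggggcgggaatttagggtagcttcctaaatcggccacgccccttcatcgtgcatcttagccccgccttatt
Slc25a40 (chr5:8422588-8422837, plus strand): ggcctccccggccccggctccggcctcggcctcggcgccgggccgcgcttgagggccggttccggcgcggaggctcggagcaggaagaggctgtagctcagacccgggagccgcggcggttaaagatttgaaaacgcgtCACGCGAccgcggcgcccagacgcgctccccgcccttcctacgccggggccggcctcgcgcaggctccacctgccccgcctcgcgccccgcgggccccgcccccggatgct

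A promoter sequence was at hand for 36 of the 47 carriers and 7 of the 10 called. The searched window was the 250 bases before and 50 bases after the start site. The printed sequence of Slc25a36 holds a CRE starting 161 bases before the start site and an E-box starting 187 bases before it, which do not overlap. In Slc25a13, which was not called, an AP-1 match and an E-box overlap. Slc25a11 holds an AP-1 match starting at -144 and Slc25a40 an XRE match starting at -111, on the reverse strand. Slc25a10 holds none of the 5, and neither do Slc25a12, Slc25a24 and Slc25a45. No motif was found in more than 1 of the 7 called carriers. Over the 36 carriers an E-box was present in 7 (19.4%, against 8.09% of 27025 genes with a window), an XRE in 5 (13.9%, against 5.84%), a CRE in 2 (5.56%, against 2.03%), an AP-1 match in 2 (5.56%, against 8.97%) and an NRF1 match in 2 (5.56%, against 5.19%). The sequence before the start held a median of 59.2% G and C in carriers and 52.4% over all windows, and of the 5 motifs AP-1 alone holds no CG. A match is a description of letters and not of binding.

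An ADP/ATP carrier and the phosphate carrier were the most abundant members in both groups. Levels between genes are compared per length, as CPM per kilobase of exon. Slc25a5, the main ADP/ATP carrier of dividing and non-muscle cells, was the most abundant carrier at 112 CPM per kilobase in FL, followed by the phosphate carrier Slc25a3 (67.7), the heart and muscle ADP/ATP carrier Slc25a4 (28.5), the mitoferrin Slc25a37 (22.3), the calcium-regulated ATP-Mg carrier Slc25a25 (17.7) and the NAD carrier Slc25a51 (16.1). In EC-KO the order was Slc25a5 (111), Slc25a3 (86.8), Slc25a51 (30.4), Slc25a4 (28.9), Slc25a25 (25.2) and Slc25a37 (16.8). Slc25a51, Slc25a4 and Slc25a25 overlapped in their EC-KO values, so their order there is not beyond the spread. In FL, Slc25a4 overlapped Slc25a37, and Slc25a25 overlapped Slc25a51. The share of Slc25a51 in the summed carrier level was 3.67% ± 0.21 in FL and 6.70% ± 0.71 in EC-KO (SD, n = 3 each), and that of Slc25a24 was 3.18% ± 0.69 and 1.70% ± 0.42. The summed level of all carriers was 437.6 ± 11.0 CPM per kilobase in FL and 453.2 ± 15.6 in EC-KO (SD, n = 3 each; exact permutation test, two-sided, p = 0.3, where 3 against 3 libraries cannot go below 0.1). Without division by length, the carriers summed to 1682 ± 33.3 CPM in FL and 1849.8 ± 20.4 CPM in EC-KO (exact permutation p = 0.1).

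**Figure D2:**
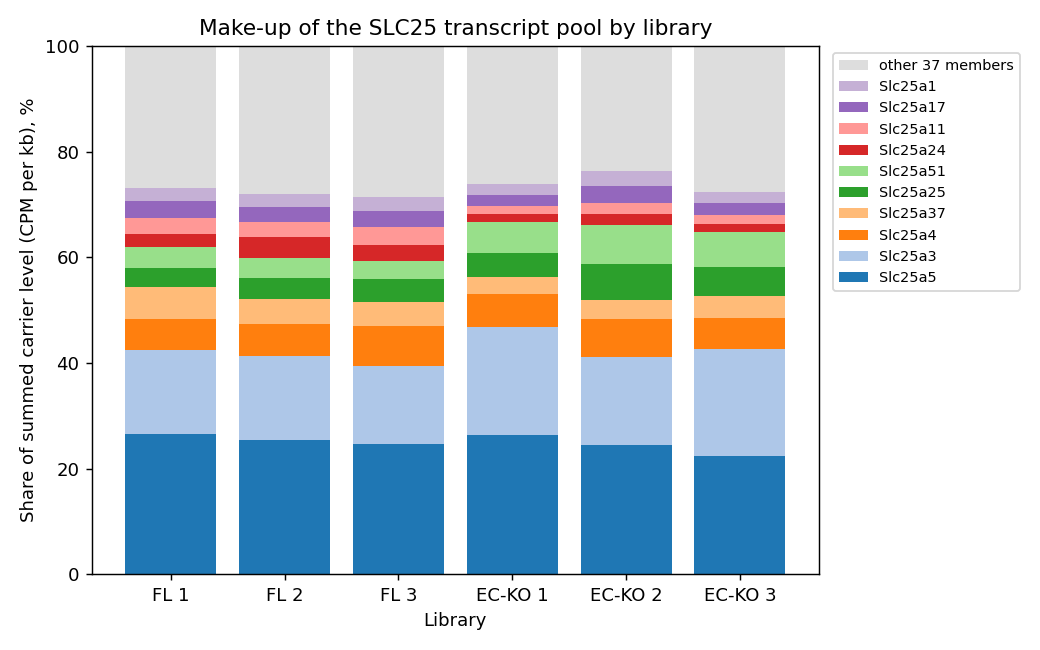
Share of each of the 10 most abundant carriers, and of the other 37 together, in the summed carrier level (CPM per kilobase, y axis) of each library (x axis). Slc25a5, Slc25a3 and Slc25a4 together hold 47.0% to 53.0%, and the band of Slc25a51 is wider in the 3 EC-KO libraries.

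Of the 9 members for adenine nucleotides and phosphate, 6 were tested, of which 1 fell and 5 did not pass the test. Over all tested genes 13.5% were called lower. Slc25a24, a calcium-dependent ATP-Mg/phosphate carrier (chromosome 3, 109030465 to 109075773, by the positions deposited with the counts, of unresolved build, as throughout for genes), was at 39.5, 57.4 and 45.9 CPM across FL and 22.8, 34.4 and 22.2 across EC-KO. All EC-KO values lay below all FL values, with EC-KO 2 highest among the former, and the log2 fold change was -0.85 ± 0.22 (SE, n = 3 each), adjusted p = 0.0236 in edgeR's quasi-likelihood test. It was not called with FL 2 or 3 or EC-KO 1 or 3 left out (adjusted p = 0.0961, 0.0632, 0.0909 and 0.0739). Its relative Slc25a25 had values in the other direction, at 129, 135 and 153 CPM across FL and 164, 244 and 185 across EC-KO (0.51, adjusted p = 0.0733), and did not pass the test, although it was called with DESeq2 (adjusted p = 0.0496), upper-quartile scaling (adjusted p = 0.043), library-size scaling (adjusted p = 0.0324) and scaling to the pan-endothelial markers (adjusted p = 0.0025). EC-KO 2 was the highest library for Slc25a25, and without it the value was 0.30. The phosphate carrier Slc25a3 was at 387, 376 and 364 CPM across FL and 528, 427 and 490.4 across EC-KO (0.36, adjusted p = 0.127). Its groups did not overlap, and it was called higher in the comparison without EC-KO 2. Exons of an unnamed gene overlap 11.8% of its length, where ambiguous reads were set aside. Slc25a5 was at 194, 177 and 180.4 CPM across FL and 201, 185 and 161 across EC-KO and Slc25a4 at 62.2, 59.9 and 79.3 CPM across FL and 67.9, 76.9 and 59.0 across EC-KO, and for both the groups overlapped. Their intervals for the log2 difference were -0.37 to 0.34 and -0.38 to 0.41, and Slc25a23, at 21.9, 18.4 and 23.5 CPM across FL and 16.0, 26.4 and 18.6 across EC-KO, had -0.063 (-0.56 to 0.43). Cardiac and skeletal muscle markers, of which 3 of 10 rose, are given beside the level of Slc25a4. They summed to 58.5 to 123 CPM in FL and 111 to 226 CPM in EC-KO, ranges that overlap. Slc25a5 has processed pseudogenes, and reads that map to several places were set aside, so its count is uncertain. The testis ADP/ATP carrier Slc25a31 had 0 to 6 counts per library and Slc25a41 0 to 4, while Slc25a54 had 0 in all 6, which allows up to 3 counts or 0.0866 to 0.114 CPM per library, for counting error only.

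Carriers of di- and tricarboxylates moved in opposite directions. The dicarboxylate carrier Slc25a10, which exchanges malate or succinate for phosphate (chromosome 11, 120382666 to 120390013), was at 8.91, 7.42 and 9.65 CPM across FL and 13.7, 17.6 and 13.2 across EC-KO. The EC-KO libraries were all above FL, and the log2 fold change was 0.78 ± 0.20 (SE, n = 3 each), adjusted p = 0.022 in edgeR's quasi-likelihood test. The call was lost with FL 1, 2 or 3 or EC-KO 1 left out (adjusted p = 0.0579, 0.0978, 0.0622 and 0.0531). The oxoglutarate carrier Slc25a11, which exchanges oxoglutarate for malate (chromosome 11, 70535022 to 70538305), was at 28.5, 26.5 and 31.7 CPM across FL and 16.3, 19.6 and 16.0 across EC-KO. All EC-KO libraries were below all FL libraries, and the log2 fold change was -0.74 ± 0.17 (SE, n = 3 each), adjusted p = 0.0129 in edgeR's quasi-likelihood test. This call did not hold with FL 3 or EC-KO 1 left out (adjusted p = 0.0584 and 0.0535). Of the exonic length of Slc25a11, 8.92% is shared with Rnf167, and 6.60% of that of Slc25a10 with Gm11788. The citrate carrier Slc25a1, which exports citrate for lipid synthesis, was at 24.3, 22.2 and 25.9 CPM across FL and 19.7, 28.6 and 20.4 across EC-KO (-0.074, interval -0.50 to 0.36). The groups overlapped, with EC-KO 2 above all FL libraries and EC-KO 1 and 3 below them. Slc25a21, for oxodicarboxylates, had 0 counts in each FL library and 6, 2 and 2 in EC-KO 1, 2 and 3, too few to test.

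Among the 12 tested carriers of amino acids, glutathione and methyl donors 2 fell and 10 did not pass the test, with a median of -0.14. Over all tested genes 13.5% were called lower. Slc25a12, the aspartate-glutamate carrier of the malate-aspartate shuttle in most non-hepatic tissues (chromosome 2, 71101407 to 71198093), was at 30.1, 31.5 and 32.6 CPM across FL and 22.5, 22.0 and 21.6 across EC-KO. The libraries of each group lay close together and the groups were apart, with a log2 fold change of -0.51 ± 0.15 (SE, n = 3 each), adjusted p = 0.0314 in edgeR's quasi-likelihood test. Slc25a12 was no longer called with FL 1, 2 or 3 or EC-KO 1 or 3 left out (adjusted p = 0.0501, 0.104, 0.101, 0.0819 and 0.0859). It was also not called with upper-quartile (adjusted p = 0.0533), library-size (0.0698) or respiratory-chain scaling (0.0531) or without the filter on low counts (0.0652), and 6 of the 17 alternatives kept the call. Its relative Slc25a13 was low, at 1.82, 3.21 and 1.77 CPM across FL and 2.74, 2.10 and 1.61 across EC-KO (-0.076, interval -0.87 to 0.72), with overlapping groups. Slc25a39 and Slc25a40 are related carriers linked to glutathione import, with overlapping function. Slc25a40 (chromosome 5, 8472850 to 8504797) was at 10.4, 11.3 and 8.98 CPM across FL and 6.64, 5.11 and 5.97 across EC-KO, with no overlap and a log2 fold change of -0.79 ± 0.20 (SE, n = 3 each), adjusted p = 0.0211 in edgeR's quasi-likelihood test. Its call was lost with FL 2 or EC-KO 3 left out (adjusted p = 0.0863 and 0.0544). Slc25a39 was at 28.1, 26.5 and 30.8 CPM across FL and 19.7, 33.2 and 20.4 across EC-KO (-0.22, adjusted p = 0.49). EC-KO 2 was above every FL library for Slc25a39 and the other EC-KO libraries below every one, and without EC-KO 2 it was called lower (-0.54, adjusted p = 0.0204).

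The other amino acid carriers did not pass the test. The branched-chain amino acid carrier Slc25a44 was at 27.7, 28.0 and 30.5 CPM across FL and 37.5, 25.0 and 43.3 across EC-KO (0.29, adjusted p = 0.326), with EC-KO 1 and 3 above all FL libraries and EC-KO 2 below them, and it was called higher without EC-KO 2. The glutamate carrier Slc25a22 was at 25.7, 21.3 and 19.7 CPM across FL and 21.4, 20.3 and 19.8 across EC-KO (-0.12, interval -0.50 to 0.26). Its relative Slc25a18 was low, at 0.872, 1.37 and 0.761 CPM across FL and 1.21, 1.57 and 2.13 across EC-KO (0.70, adjusted p = 0.202). The glycine carrier Slc25a38, used in heme synthesis, was at 20.5, 20.6 and 21.2 CPM across FL and 18.2, 19.9 and 17.7 across EC-KO, a value of -0.16 with no overlap (adjusted p = 0.478). The log2 fold change of the S-adenosylmethionine carrier Slc25a26 was -0.26, that of the ornithine carriers Slc25a15 and Slc25a2 -0.088 and -0.27, and that of the basic amino acid carrier Slc25a29 0.61 with a wide interval of -0.53 to 1.76. Slc25a48 had 0 to 9 counts per library and was not tested.

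The carriers of cofactors, nucleotides and acylcarnitines held 3 of the 4 rises. In this group 3 of 9 rose, 1 fell and 5 did not pass the test, with a median of -0.20 and 6 values below 0. Among all tested genes 13.5% were called higher and 13.5% lower, and whether the group differed from these shares was not tested. Slc25a51, which brings NAD into mitochondria (chromosome 4, 45395923 to 45408766), was at 94.9, 85.7 and 85.2 CPM across FL and 153, 187 and 162 across EC-KO. Each EC-KO library was at least 153 CPM and each FL library at most 94.9 CPM, and the log2 fold change was 0.92 ± 0.15 (SE, n = 3 each), adjusted p = 0.00372 in edgeR's quasi-likelihood test. It was called in each of the 17 alternative analyses (0.80 to 0.97 with 1 library left out). Slc25a36, a pyrimidine nucleotide carrier (chromosome 9, 96957014 to 96993210), was at 91.2, 90.5 and 77.6 CPM across FL and 148, 97.2 and 154 across EC-KO. EC-KO 1 and 3 were high, with EC-KO 2 just above FL, and it had a log2 fold change of 0.62 ± 0.20 (SE, n = 3 each), adjusted p = 0.0472 in edgeR's quasi-likelihood test. The rise did not pass the test with FL 1, 2 or 3 or EC-KO 1 or 3 left out (adjusted p = 0.0952, 0.119, 0.183, 0.151 and 0.151), with limma-voom (adjusted p = 0.0548) or with respiratory-chain scaling (adjusted p = 0.12). EC-KO 2, the EC-KO library nearest FL for Slc25a36, was also the nearest in endothelial markers (8906 CPM, against 4421 and 4569.9 CPM in EC-KO 1 and 3). The same held for macrophage (3329.7 CPM, against 2522 and 2496 CPM) and smooth muscle and pericyte markers (437 CPM, against 296 and 350 CPM). EC-KO 2 was the farthest from FL in epithelial (16914 CPM, against 11564 and 11399 CPM) and fibroblast markers (1729 CPM, against 1149 and 760.2 CPM). The part of these cell types in the Slc25a36 values was not tested.

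Slc25a32, which carries folate and FAD (chromosome 15, 38954626 to 38976111), went the other way, at 17.6, 23.0 and 22.3 CPM across FL and 12.5, 9.53 and 14.9 across EC-KO. Each EC-KO library was below each FL library, and the log2 fold change was -0.77 ± 0.21 (SE, n = 3 each), adjusted p = 0.0281 in edgeR's quasi-likelihood test. The fall did not pass the test with FL 2 or 3 or EC-KO 1 left out (adjusted p = 0.101, 0.0867 and 0.0807), with library-size scaling (adjusted p = 0.059) or with respiratory-chain scaling (adjusted p = 0.0516). The coenzyme A carriers Slc25a16 (-0.47, adjusted p = 0.0969) and Slc25a42 (-0.61, adjusted p = 0.0952) and the carnitine-acylcarnitine carrier Slc25a20 (-0.37, adjusted p = 0.135) had groups that did not overlap, with EC-KO below, and did not pass the test. Slc25a16 was at 15.9, 18.1 and 21.5 CPM across FL and 15.0, 11.7 and 13.5 across EC-KO, Slc25a42 at 5.42, 7.94 and 9.29 CPM across FL and 4.56, 5.11 and 5.20 across EC-KO and Slc25a20 at 40.6, 35.1 and 44.0 CPM across FL and 31.8, 34.3 and 26.5 across EC-KO. Slc25a20 was called lower without EC-KO 2. Slc25a42 was called lower without FL 1 (-0.83, adjusted p = 0.0373). The pyrimidine carrier Slc25a33 was at 4.06, 9.44 and 9.38 CPM across FL and 7.65, 8.28 and 5.38 across EC-KO (-0.11, interval -0.86 to 0.65), with FL 1 below every other library. The peroxisomal carrier Slc25a17 was at 38.4, 34.1 and 37.1 CPM across FL and 26.9, 42.1 and 26.6 across EC-KO (-0.20), with EC-KO 2 above all FL libraries and EC-KO 1 and 3 below them, and it was called without EC-KO 2.

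**Figure D3:**
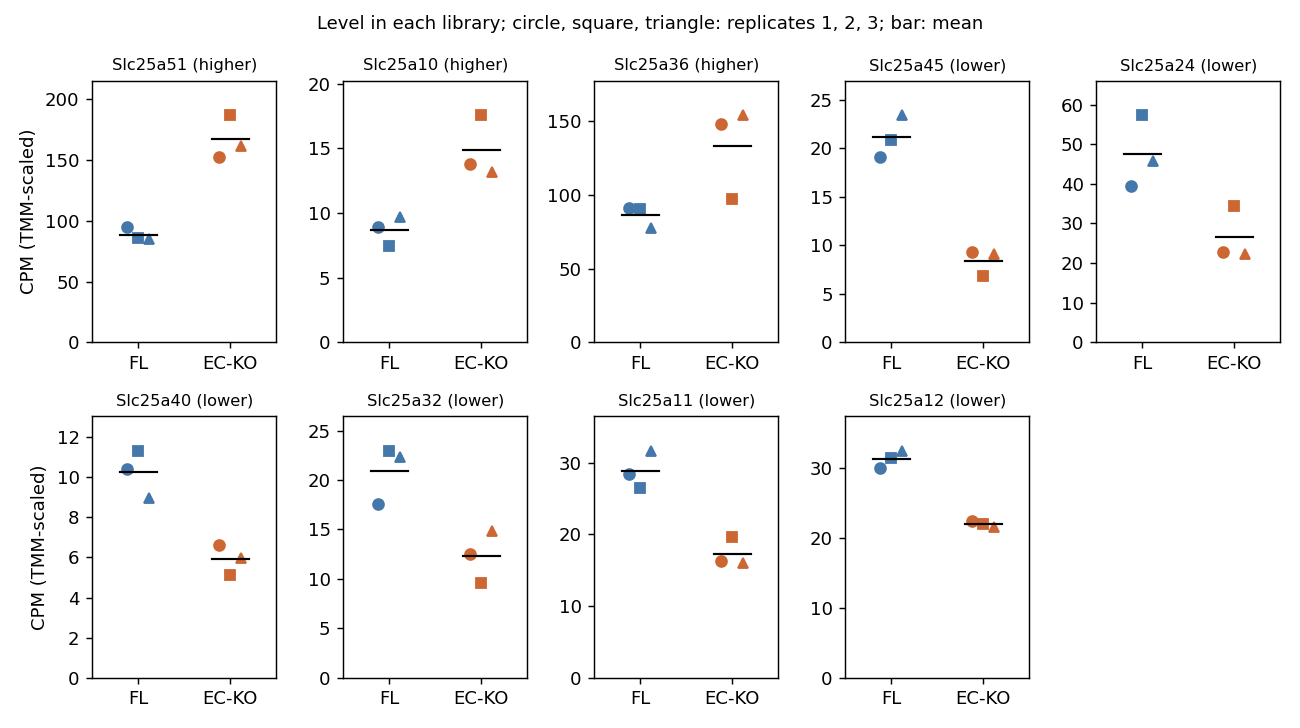
Level in CPM (y axis, from 0) of 9 called carriers in each of the 3 FL and 3 EC-KO libraries, with the group mean as a bar. The groups are apart in all 9 panels, and in Slc25a36 EC-KO 2 (97.2 CPM) lies closest to FL 1 (91.2 CPM).

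Both mitoferrins, the iron importers, were lower in value without passing the test. Slc25a37, the mitoferrin known for erythroid cells, was at 159.8, 122 and 121 CPM across FL and 90.4, 102 and 109.9 across EC-KO (-0.41, adjusted p = 0.101). Slc25a28, the more widely expressed one, was at 42.5, 40.8 and 37.8 CPM across FL and 36.8, 25.6 and 31.2 across EC-KO (-0.37, adjusted p = 0.144). For both, the lowest FL library was above the highest EC-KO library. Of 8 tested erythroid markers 5 were higher in EC-KO, where 13.5% of all tested genes were called higher. The erythroid list summed to 68.9, 26.4 and 14.8 CPM across FL and 74.5, 105 and 211 across EC-KO. Between the groups this sum and Slc25a37 thus went opposite ways, while within each group the libraries ranked alike in both. The part of erythroid cells in the mitoferrin values was not tested. The uncoupling protein relatives Slc25a14 (0.63), Slc25a27 (-0.54) and Slc25a30 (-0.18) did not pass the test. Slc25a30 was at 38.5, 35.7 and 37.9 CPM across FL and 34.9, 28.7 and 35.4 across EC-KO, without overlap, and Slc25a27 at 4.51, 5.74 and 5.54 CPM across FL and 2.89, 4.77 and 3.25 across EC-KO, with EC-KO 2 within the range of FL and Slc25a27 called lower when EC-KO 2 was left out.

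Among the 42 tested carriers Slc25a45 changed most (chromosome 19, 5927836 to 5935906). It was at 19.1, 20.8 and 23.4 CPM across FL and 9.27, 6.81 and 9.06 across EC-KO, so that the highest EC-KO library (9.27 CPM) was well below the lowest FL library (19.1 CPM). The log2 fold change was -1.33 ± 0.19 (SE, n = 3 each), adjusted p = 0.00208 in edgeR's quasi-likelihood test. It was called with each library left out in turn (-1.43 to -1.23) and lost its call only when counts were scaled to the pan-endothelial markers (-0.078, adjusted p = 0.869) among the 17 alternatives run. Slc25a46, an outer membrane protein linked to fission, fusion and lipid transfer, was at 36.5, 39.9 and 38.8 CPM across FL and 33.4, 27.8 and 29.7 across EC-KO (-0.34, adjusted p = 0.124), with groups that did not overlap. Slc25a53 was at 5.69, 6.17 and 6.15 CPM across FL and 8.69, 7.12 and 9.18 across EC-KO (0.47, adjusted p = 0.109), also without overlap. Slc25a34, Slc25a35, Slc25a43 and the liver carrier Slc25a47 lay between -0.88 and 0.15 with overlapping groups, and Slc25a35 shares 31.3% of its exonic length with Rangrf.

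Ratios of related carriers within a library do not depend on the scaling between libraries. In 9 pairs of related carriers, the exact permutation test over libraries (two-sided) cannot go below 0.1, so no pair can reach 0.05. The groups did not overlap in 2 pairs, both with Slc25a24. As they share this gene, which was itself called lower, the 2 are not independent of each other. The log2 ratio of Slc25a24 to Slc25a25 counts was -1.71, -1.24 and -1.74 across FL and -2.84, -2.83 and -3.06 across EC-KO, a difference of -1.35 on the log2 scale, 2.55-fold lower in EC-KO (exact permutation p = 0.1, adjusted over the 9 pairs 0.45). That of Slc25a24 to Slc25a23 was 0.85, 1.64 and 0.96 across FL and 0.51, 0.38 and 0.25 across EC-KO, a difference of -0.77 (exact permutation p = 0.1, adjusted 0.45). Among these calcium-dependent ATP-Mg carriers, each of the 3 EC-KO libraries thus held less Slc25a24 relative to Slc25a25 and to Slc25a23 than any FL library. The ratio of the ADP/ATP carriers Slc25a4 and Slc25a5 was -1.64, -1.56 and -1.19 across FL and -1.57, -1.26 and -1.44 across EC-KO, with overlapping groups and a difference of 0.039. The mitoferrin ratio differed by -0.021, and that of Slc25a39 to Slc25a40 by 0.53, with EC-KO 2 highest. The other differences in log2 ratio were -0.46 for Slc25a12 to Slc25a13, 0.82 for Slc25a18 to Slc25a22, -0.62 for Slc25a33 to Slc25a36 and 0.11 for Slc25a16 to Slc25a42, all with overlapping groups.

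**Figure D4:**
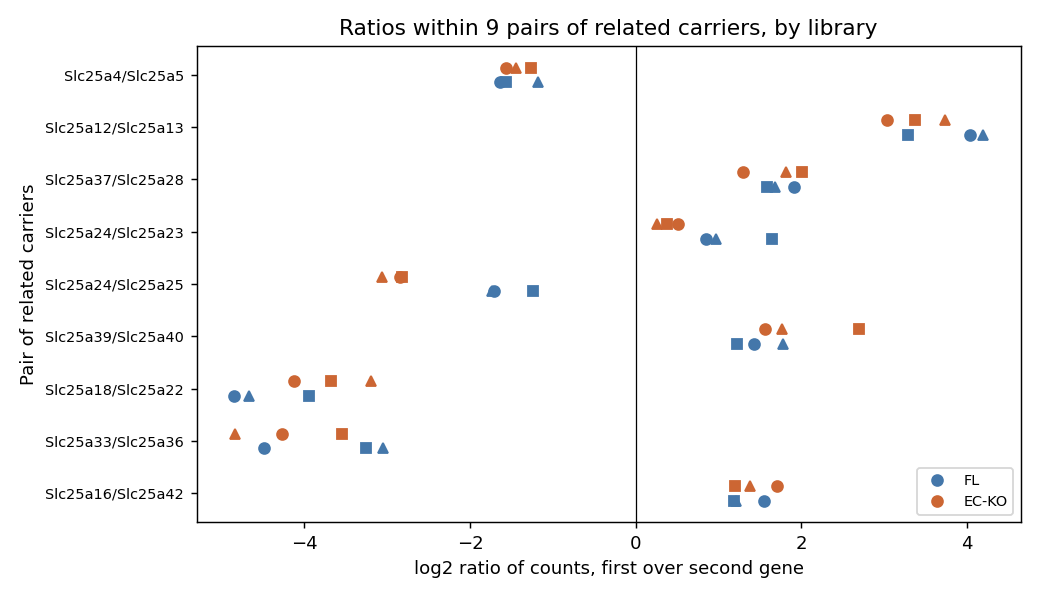
Log2 ratio of the counts of 2 related carriers (x axis) in each library, for 9 pairs (y axis). Blue marks FL and orange EC-KO, with circle, square and triangle for replicates 1, 2 and 3. The colours are apart only in the 2 pairs with Slc25a24.

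Of 4 tested relatives of the family that carry other symbols 2 fell, where 13.5% of all tested genes were called lower. Ucp2, the uncoupling protein relative of immune and endothelial cells, was at 765, 911 and 1278 CPM across FL and 258, 390.0 and 236 across EC-KO, with every EC-KO library below every FL library, a log2 fold change of -1.74 ± 0.27 (SE, n = 3 each), adjusted p = 0.00257 in edgeR's quasi-likelihood test. The macrophage marker sum was lower in the same libraries, and its part in the Ucp2 value was not tested. Scaled to the pan-endothelial markers, Ucp2 kept its sign but was not called (-0.62, adjusted p = 0.116). Ucp3 was low, at 1.21, 3.51 and 1.58 CPM across FL and 0.347, 0.251 and 0.680 across EC-KO, and fell (-2.30, adjusted p = 0.0156), though not with FL 2 or EC-KO 1 left out (adjusted p = 0.0693 and 0.0642). Ucp1, of brown fat, was at most 0.345 CPM in any library, beside brown adipocyte markers that summed to 78.6 to 129 CPM in FL and 31.7 to 62.2 CPM in EC-KO. Of these markers 2 of 7 tested rose and 1 fell, and 5 lay above 0 with a median log2 fold change of 1.18. The sum and most of its list thus went opposite ways. The carrier-like outer membrane proteins Mtch1 (0.16) and Mtch2 (0.16) did not pass the test.

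Genes around the carriers were counted from lists of transport and enzyme genes. Beside the counts here and in the paragraphs on enzymes below, 13.5% of all tested genes were called higher and 13.5% lower. Whether a list differed from these shares was not tested. The genes named in these paragraphs as falling all lost their call when scaled to the pan-endothelial markers. Of 16 other mitochondrial transporters 1 fell, the sideroflexin Sfxn5 (-1.87, adjusted p = 0.00411), while the pyruvate carrier subunits Mpc1 (-0.22) and Mpc2 (-0.17) did not pass the test. Of 10 genes of the TIM22 route, which inserts carriers into the inner membrane, 2 rose. These were the small chaperones Timm8a1 (1.08, adjusted p = 0.034) and Timm10 (1.00, adjusted p = 0.0408), and Timm8a1 was not called with FL 1, 2 or 3 or EC-KO 1, 2 or 3 left out (adjusted p = 0.0544, 0.116, 0.0808, 0.11, 0.0566 and 0.0527), nor Timm10 with FL 1, 2 or 3 or EC-KO 1 or 3 left out (adjusted p = 0.116, 0.0529, 0.139, 0.16 and 0.0673). In the nuclear-encoded respiratory chain 2 of 80 tested genes rose and 2 fell (median 0.085), against 4 and 6 of 42 carriers, and this difference was not tested. Those that rose were the complex IV subunit Cox6a2 (1.56, adjusted p = 0.00704) and the complex III subunit Uqcrh (0.63, adjusted p = 0.0164), and those that fell the succinate dehydrogenase subunit Sdha (-0.66, adjusted p = 0.0157) and the ATP synthase subunit Atp5c1 (-0.51, adjusted p = 0.0413). Uqcrh was not called with FL 2 or 3 or EC-KO 1 left out (adjusted p = 0.0854, 0.0729 and 0.0652). Sdha was not called with FL 3 or EC-KO 1 or 3 left out (adjusted p = 0.0632, 0.0584 and 0.0597). Atp5c1 was not called with FL 2 or 3 or EC-KO 1 or 3 left out (adjusted p = 0.113, 0.135, 0.0969 and 0.129).

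For the enzymes that use what the carriers bring, the directions were mixed. In the malate-aspartate and glycerol phosphate shuttles 1 of 6 enzymes rose and 0 fell. The riser was the glycerol phosphate dehydrogenase Gpd1 (1.08, adjusted p = 0.0135), which was not called with FL 2 or 3 left out (adjusted p = 0.06 and 0.0606). It belongs to the glycerol phosphate shuttle, and no enzyme of the malate-aspartate shuttle was called. The malate-aspartate carriers Slc25a11 and Slc25a12 fell, the latter with its call kept in 6 of the 17 alternatives. The mitochondrial aspartate aminotransferase Got2 had -0.40 (adjusted p = 0.0787). Beside the citrate carrier Slc25a1, which was not called, 1 of 6 enzymes of citrate use and fatty acid synthesis rose, the fatty acid synthase Fasn, at 70.7, 69.9 and 58.0 CPM across FL and 204, 208 and 228 across EC-KO (log2 fold change 1.69 ± 0.16 SE, n = 3 each, adjusted p = 0.000443 in edgeR's quasi-likelihood test). Of 10 enzymes of the carnitine shuttle and beta-oxidation 3 fell. Cpt1a, which makes the acylcarnitines that Slc25a20 imports, was at 166, 199 and 204 CPM across FL and 93.0, 91.3 and 93.6 across EC-KO (log2 fold change -1.03 ± 0.15 SE, n = 3 each, adjusted p = 0.00216 in edgeR's quasi-likelihood test), and Cpt2, which reconverts them in the matrix, had -1.22 (adjusted p = 0.00601). The third was Crat (-0.54, adjusted p = 0.0492), named after its value was seen and not called with FL 1, 2 or 3 or EC-KO 1 or 3 left out (adjusted p = 0.0684, 0.175, 0.0988, 0.159 and 0.108).

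Of 12 genes of folate, NAD and methyl donor metabolism 4 rose, where 13.5% of all tested genes were called higher. The folate carrier Slc25a32 fell and the NAD carrier Slc25a51 rose. Mthfd2, the mitochondrial folate dehydrogenase, was at 13.1, 8.89 and 7.43 CPM across FL and 36.8, 26.1 and 30.1 across EC-KO (log2 fold change 1.66 ± 0.25 SE, n = 3 each, adjusted p = 0.00222 in edgeR's quasi-likelihood test). Shmt1, the cytosolic serine hydroxymethyltransferase, had 1.66 (adjusted p = 0.00105). The others were the mitochondrial Shmt2 (0.77, adjusted p = 0.0184) and Aldh1l2 (1.71, adjusted p = 0.023), named after their values were seen. Shmt2 was not called with FL 2 or 3 or EC-KO 1 or 3 left out (adjusted p = 0.0852, 0.0687, 0.0632 and 0.0676), nor Aldh1l2 with FL 1 or 3 or EC-KO 2 or 3 left out (adjusted p = 0.0622, 0.076, 0.0519 and 0.0557). Nampt, the limiting enzyme of NAD salvage, had -0.18 (adjusted p = 0.423).

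Of 10 enzymes of glutamate, proline and ornithine 2 rose and 2 fell. The ornithine aminotransferase Oat was at 103, 94.6 and 94.8 CPM across FL and 192, 199 and 163 across EC-KO (log2 fold change 0.92 ± 0.15 SE, n = 3 each, adjusted p = 0.00356 in edgeR's quasi-likelihood test), and the mitochondrial arginase Arg2 fell (-1.45, adjusted p = 0.00633). Aldh18a1, of proline synthesis, rose (0.74, adjusted p = 0.0192) but not with FL 1, 2 or 3 or EC-KO 1 or 3 left out (adjusted p = 0.0594, 0.0506, 0.097, 0.0765 and 0.0642). Glutamate dehydrogenase Glud1 fell (-0.46, adjusted p = 0.0479) but not with FL 1, 2 or 3 or EC-KO 1 or 3 left out (adjusted p = 0.0683, 0.139, 0.134, 0.12 and 0.147). Of 12 genes of iron-sulfur clusters and heme, which use the iron that mitoferrins import, 2 rose and 1 fell. Cpox, of heme synthesis, was at 12.9, 13.6 and 11.1 CPM across FL and 6.32, 5.71 and 6.90 across EC-KO (log2 fold change -0.99 ± 0.19 SE, n = 3 each, adjusted p = 0.00678 in edgeR's quasi-likelihood test). The cluster assembly gene Isca1 rose (0.45, adjusted p = 0.0416), but not with FL 1, 2 or 3 or EC-KO 1 or 3 left out (adjusted p = 0.133, 0.136, 0.149, 0.132 and 0.11).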

How the data were processed

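RNA of cells isolated from mouse lungs was sequenced in 3 FL and 3 EC-KO libraries. The authors deposited raw counts per Ensembl gene and, as counts, a summary of alignments per class, in the featureCounts layout per the file headers. Listed in the submitters' processing notes are featureCounts 2.0.3, STAR 2.7.10b and mm10, without roles. For strand setting and annotation release nothing is given in the sources used here. Gene lengths are those deposited with the counts. The groups differed in the share of alignments assigned to genes, 75.5% to 77.8% in FL and 72.4% to 74.7% in EC-KO. Alignments to several places (9.10% to 11.5%) and ambiguous ones (3.60% to 3.98%) were set aside. A further 2 columns match no labelled sample and were not used.

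Symbols came from identifiers of the GENCODE annotation of GRCm38 (51948 of 56941 genes matched). Only 2 of the 47 carriers had the same start there, so gene coordinates are printed as the count table gives them, with the build unresolved, while promoter sequences are RefSeq's in GRCm38.p6.

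Counts were filtered with filterByExpr, scaled by TMM and tested with edgeR 4.0.16 (R 4.3.3) by the robust quasi-likelihood F test of EC-KO against FL over all 18562 genes, two-sided, adjusted by Benjamini-Hochberg and called below 0.05. Standard errors equal the size of the log2 fold change over the square root of F, and intervals (95%) use the test's degrees of freedom. CPM are TMM-scaled, and ratios of pairs used counts plus 0.5. Alternatives used DESeq2 1.42.0, limma-voom 3.58.1, other scalings and filters, the replicate block and left-out libraries. Members, lists, tests and alternatives were chosen with earlier results of these data known. Named were all called carriers, the most abundant of each substrate group, both genes of each of 9 pairs, up to 2 called genes per direction, by smallest p, of each other list, and Fundc1. Further carriers were added, a few genes that enter the counts are not reported here by name, and other genes were named after their values were seen.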

Additional observations from a re-analysis of the deposited data

How the results depend on the processing

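Carrier counts, like the counts over all genes, depended on single libraries. With 1 library left out, 1 to 6 carriers were higher, 2 to 10 lower, the carrier median was -0.27 to -0.11, genes changed in the whole table numbered 2547 to 6740, and Slc25a51 and Slc25a45 were the 2 carriers called each time. The most calls came without EC-KO 2 (6 and 10) and the fewest without FL 2, FL 3 or EC-KO 1 (1 and 2 each). Without EC-KO 2, 38.1% of carriers and 35.1% of all genes were called. With FL 2, FL 3 or EC-KO 1 left out it was 7.14% of carriers each time, against 13.6%, 13.2% and 14.7% of all genes. Without FL 1 and EC-KO 2, 5 carriers were higher and 11 lower (median -0.30) among 7554 called genes, 38.1% of carriers and 39.8% of all genes. Calls higher numbered 2 with limma-voom, and 2 with scaling to the nuclear respiratory chain. In either direction, these settings called 19% and 14.3% of carriers, against 27.6% and 25.6% of all genes. The replicate block gave 2 higher and 4 lower carriers (14.3%, against 20.7% of all genes). Same-numbered libraries deviated together by correlations of only 0.049, 0.070 and -0.18 across genes, and not every library correlated best with its own number. Deviations from means of 3 libraries cannot decide whether the numbers pair libraries, which the labels do not give. RLE scaling called the same 10 carriers. Upper-quartile and library-size scaling moved the share of higher calls among all genes from 50% to 57.4% and 57.5%.

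Scaled to the pan-endothelial markers, 10821 were the genes changed in the whole table (58.3%), and 23 carriers were higher and 0 lower (54.8%). The carrier median was 1.03 and Fundc1 was at 0.18 (adjusted p = 0.657). Among the genes followed through every alternative, those that changed sign there were Slc25a11 0.41, Slc25a12 0.68, Slc25a13 1.11, Slc25a16 0.78, Slc25a22 1.05, Slc25a23 1.04, Slc25a24 0.26, Slc25a28 0.86, Slc25a30 1.05, Slc25a32 0.50, Slc25a33 1.08, Slc25a37 0.75, Slc25a39 0.86, Slc25a40 0.42, Slc25a42 0.61, Slc25a5 1.16, Atp5c1 0.67, Cpox 0.21, Cpt1a 0.17, Crat 0.61, Glud1 0.71, Sdha 0.50. Others kept their sign there but lost their call. These were Ucp2 (-0.62, adjusted p = 0.116), Ucp3 (-1.01, adjusted p = 0.191), Sfxn5 (-0.60, adjusted p = 0.227), Cpt2 (-0.052, adjusted p = 0.91), Arg2 (-0.21, adjusted p = 0.636) and Slc25a45 (-0.078, adjusted p = 0.869). Of the carriers not followed through every alternative, Slc25a1, Slc25a15, Slc25a17 and Slc25a38, below 0 with TMM, were called higher there. Under upper-quartile and library-size scaling, near-zero values also crossed 0 for Slc25a13 (0.0026 and 0.011), Slc25a23 (0.0068 and 0.0098) and Slc25a5 (0.058 and 0.070), the last also with a filter of 1 CPM (0.012). Slc25a4 was at -0.0048 without a filter, -0.17 without FL 1 and EC-KO 2 and -0.057 scaled to the respiratory chain. With 1 library left out, Slc25a13 ranged from -0.29 to 0.26, Slc25a23 from -0.33 to 0.081, Slc25a33 from -0.44 to 0.068, Slc25a4 from -0.11 to 0.12 and Slc25a5 from -0.094 to 0.053. The cause of these changes was not tested.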
